A study of Mus musculus with 20 samples.

Results

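The genes examined were the neighbours of Fkbp5 on mouse chromosome 17, compared between wild-type and Fkbp5 knockout hippocampus along their position. They were selected on measured values as well as on position: a gene of mm10 chr17:23399094-33517527, which reaches 5 Mb beyond either end of Fkbp5, was kept where its raw counts summed to at least 100 over the 20 libraries. Of 524 genes in that window in the deposited table of 55536, 238 reached this sum. Then 3 pseudogenes, 5 genes of ribosomal and respiratory chain families and 7 genes by name (Fkbp5 itself, Hmga1, Glo1, Dnah8, Btbd9, Glp1r and AC165951.1) were left out, so every count below describes the window without them. This left 223 genes, 194 of them protein coding, with 149 on the side of lower coordinates and 74 on the other. Just inside the limit on counts lay Gm38099 and Zbtb9 with 106 counts each and AC166172.3 with 109, and just outside it Gm16275 with 94, AC132460.3 with 91 and AC166172.1 with 88. None of the 223 overlapped the body of Fkbp5 (28399094 to 28517527).

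The mice were males of 12 weeks with the strain label C57BL/6J, either wild-type (WT) or Fkbp5 knockout (KO). Each had received 1 intraperitoneal dose of saline or of lipopolysaccharide (LPS) at 3 mg/kg, a bacterial membrane component that provokes inflammation, and the hippocampus was taken 7 days later. The 4 groups (WT saline, WT LPS, KO saline and KO LPS) had 5 RNA-seq libraries each. The labels do not say how the knockout allele was made or in which strain, or whether each library came from its own animal, so the p-values measure the spread between these libraries.

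FKBP5 is a co-chaperone that binds HSP90 in the glucocorticoid receptor complex and lowers the receptor's affinity for its hormone, and its own gene is induced by that receptor. Alleles are inherited together with the DNA around them, so a chromosome that carries a knockout can also differ from wild-type in linked sequence, depending on the strain of origin and on the crosses that followed. Genes close to a target are therefore usually read with their position in view. In this design the linked DNA and the loss of Fkbp5 go with the same libraries and cannot be told apart.

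Libraries held 16652992 to 27230202 counts, of which the 223 genes took 0.917% to 1.21%. Levels are given as CPM, which is a gene's counts relative to the library's total after TMM scaling. Fkbp5 lay between 56.7 and 73.2 CPM in the 10 WT libraries and between 25.0 and 36.0 CPM in the 10 KO ones, in the direction the labels give. All 5 markers of hippocampal granule and pyramidal cells were detected, with sums of 389 to 705 CPM in WT and 482 to 747 CPM in KO. Replicates 1 and 2 of each group stood apart from replicates 3 to 5, with 4.66% to 5.68% of counts from mitochondrial genes in the 8 former and 8.41% to 11.4% in the 12 latter libraries. Every group holds 2 libraries of the one set and 3 of the other. Among lists of other cell types, the 4 choroid plexus markers were all above 0 in log2 fold change between the genotypes (median 0.44; 23.2 to 80.4 CPM summed in WT, 27.4 to 129 in KO) and none of the 5 oligodendrocyte markers was (median -0.29; 2494 to 5722 CPM in WT, 2052 to 4056 in KO), with no marker of either list at 0 or past the test. The 4 endothelial markers were all below 0 (median -0.16; 107 to 179 CPM in WT, 96.0 to 172 in KO), and none passed. Of the 4 blood markers 1 lay above 0 (median -0.32; 0.958 to 78.9 CPM in WT, 1.79 to 76.9 in KO), and 1 passed, Hba-a2, an alpha globin gene with the near-identical copy Hba-a1. Their part in the results below was not tested.

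The neighbours covered a wide range of levels. Of the 223 genes, 214 passed the filter on low counts and were tested, and 9 did not (Npw, Msln, Wfikkn1, Gm16278, Zbtb9, CT025652.1, AC166172.3, Gm38099 and AC138228.3). Per kb of exon, the highest level over all libraries was that of Fbxl16, a brain F-box protein, with 346.5 CPM per kb, the median was 3.47 and the lowest was 0.0595 for Olfr1564, an olfactory receptor gene. The exons of 107 tested genes overlapped those of another gene. How the counting treated strand is not given in the sources used here, so reads of such genes and of antisense partners may be mixed. Of the 223, 8 genes had a near-identical copy elsewhere (Kifc5b, Gfer, Cyp4f16, Elob, U2af1, Srsf3, Zfp955a and Zfp955b), and their counts are uncertain.

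Between the genotypes over both treatments, 3 of the 214 tested neighbours passed the threshold (edgeR quasi-likelihood test, p-values adjusted by Benjamini-Hochberg across the 16419 genes of the fit, threshold 0.05). Decr2 was lower in knockout, and Ip6k3 and Pi16 were higher. This is 1.40% of the neighbours, against 0.439% of all tested genes (0.292% higher and 0.146% lower in knockout). Nothing is read from these shares, since Ip6k3 and Pi16 entered the test through the knockout groups, where they are high, and among genes with at least 1000 counts Decr2 alone was called, against 0.371%. At an unadjusted p under 0.05 stood 24 neighbours, or 11.2%, with 11 higher and 13 lower, against 4.79% of all genes. The median log2 fold change of the neighbours was -0.03 and that of all genes -0.01, and the median absolute values were 0.10 and 0.08. Of the neighbours 43.5% lay above 0, and of all genes 46.2%. With the replicate number as a block, 10 neighbours passed against 1.07% of all genes. With the library set as a term 9 passed, against 0.926%. With the block and without the 3 libraries taken as richest in thalamus RNA (WT LPS 1 and 4 and KO LPS 1) 8 passed, against 0.771%, and DESeq2 called 9, against 0.743%.

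The upstream DNA of 3 of these genes is shown for reference: Decr2 and Ip6k3 as called genes on either side of 0, and Cdkn1a for a motif described further on. The sequences are RefSeq's on GRCm38.p6, written from 5′ to 3′ on the strand of the gene. Each is taken from the 250 bases before an annotated start, up to the first base of any GENCODE exon. Capitals mark paired CATG cores.
Decr2 (chr17:26090338-26090414, minus strand): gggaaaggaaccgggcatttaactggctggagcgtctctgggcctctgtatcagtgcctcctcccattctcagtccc
Ip6k3 (chr17:27167796-27168014, minus strand): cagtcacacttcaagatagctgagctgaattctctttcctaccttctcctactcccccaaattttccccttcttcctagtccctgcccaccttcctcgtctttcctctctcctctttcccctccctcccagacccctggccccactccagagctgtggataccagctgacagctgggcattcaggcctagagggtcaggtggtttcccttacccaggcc
Cdkn1a (chr17:29090729-29090975, plus strand): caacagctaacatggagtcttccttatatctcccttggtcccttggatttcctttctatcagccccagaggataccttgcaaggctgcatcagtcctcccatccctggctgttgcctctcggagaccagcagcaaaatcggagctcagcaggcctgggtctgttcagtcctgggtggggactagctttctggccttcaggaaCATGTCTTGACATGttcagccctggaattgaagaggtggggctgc
The whole Pi16 window lies in an exon of a longer GENCODE transcript and is not printed. Cdkn1a has 2 annotated starts, and the window of the other one, with no bases before an exon, is not printed either.

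Decr2 (ENSMUSG00000036775, 26081208 to 26090337, minus strand, 2.31 Mb before Fkbp5) encodes the peroxisomal dienoyl-CoA reductase, which helps to break down polyunsaturated fatty acids. In WT saline its libraries stood at 38.0, 27.3, 37.7, 35.3 and 32.3 CPM and in WT LPS at 29.4, 25.2, 30.9, 29.8 and 35.9 CPM. In KO saline they stood at 17.3, 19.999, 20.5, 20.5 and 19.1 CPM and in KO LPS at 23.8, 20.02, 21.3, 21.3 and 21.2 CPM. All 10 knockout libraries lay below all 10 wild-type libraries. Decr2 was the only tested neighbour whose genotypes did not overlap, 0.467% of the 214 against 0.152% of all genes. The genotype means were 32.2 and 20.5 CPM, and the log2 fold change was -0.65 ± 0.07 (SE; edgeR adjusted p = 2.64e-05). It passed without each of the 20 libraries in turn. Within replicates 1 and 2 alone the log2 fold change was -0.54 (adjusted p = 0.706) and within replicates 3 to 5 alone -0.71 (adjusted p = 5.63e-07).

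Ip6k3 (ENSMUSG00000024210, 27143965 to 27167795, minus strand, 1.23 Mb before Fkbp5) encodes an inositol hexakisphosphate kinase, which makes inositol pyrophosphates. It was scarce, with 308 counts over the 20 libraries. Its WT libraries stood at 0.319, 0.276, 0.693, 0.7098 and 0.489 CPM after saline and at 0.394, 0.365, 0.837, 0.360 and 0.456 CPM after LPS. Its KO libraries stood at 0.651, 0.936, 1.01, 0.831 and 0.829 CPM after saline and at 1.05, 0.856, 1.31, 1.52 and 1.44 CPM after LPS. The genotypes overlapped in the 3 lowest knockout and the 3 highest wild-type libraries. The log2 fold change was 1.07 ± 0.22 (SE; edgeR adjusted p = 0.0275), with 1.38 in replicates 1 and 2 and 0.93 in replicates 3 to 5. The filter asked for at least 0.509 CPM in 5 libraries, on CPM without the TMM factors that scale the levels printed here, which Ip6k3 reached in 2 WT saline, 1 WT LPS, 5 KO saline and 5 KO LPS libraries, so it entered the test through the knockout groups. The call was lost without any of 12 libraries: WT saline 2 and 5, WT LPS 1, 2, 4 and 5, KO saline 3, 4 and 5, and KO LPS 3, 4 and 5 (adjusted p 0.00813 to 0.0727 over the 20 omissions). Without the filter the adjusted p was 0.0588.

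Pi16 (ENSMUSG00000024011, 29317680 to 29330593, plus strand, 0.800 Mb after Fkbp5) encodes a secreted peptidase inhibitor that marks fibroblasts of vessel sheaths. It too was scarce, with 309 counts in all. Its WT libraries stood at 0.547, 0.322, 0.373, 0.532 and 0.489 CPM after saline and at 0.748, 0.284, 0.193, 0.360 and 0.261 CPM after LPS. Its KO libraries stood at 1.12, 1.06, 0.577, 0.767 and 0.718 CPM after saline and at 1.95, 1.10, 0.926, 1.30 and 0.501 CPM after LPS. The genotypes overlapped, with KO saline replicates 3 and 5 and KO LPS replicate 5 inside the wild-type range. The log2 fold change was 1.26 ± 0.26 (SE; edgeR adjusted p = 0.0355), with 1.46 in replicates 1 and 2 and 1.13 in replicates 3 to 5. On the same scale it reached the filter in 1 WT saline, 1 WT LPS, 5 KO saline and 4 KO LPS libraries. The call held only without WT saline 1, WT LPS 1, KO saline 3, KO LPS 3 or KO LPS 5, and was lost without any of the other 15 libraries (adjusted p 0.0046 to 0.0813). In bulk tissue a change in RNA per cell and a change in the number of cells cannot be told apart. The 5 meningeal markers (Dcn, Lum, Col1a1, Slc6a13 and Igf2), genes of fibroblasts and of the brain's coverings, summed to 36.1 to 81.3 CPM in the WT libraries and 46.4 to 103 CPM in the KO libraries. Of them 4 had a log2 fold change above 0 (median 0.20), none passed the test and none was at 0, and their part in the Pi16 difference was not tested.

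**Figure D1:**
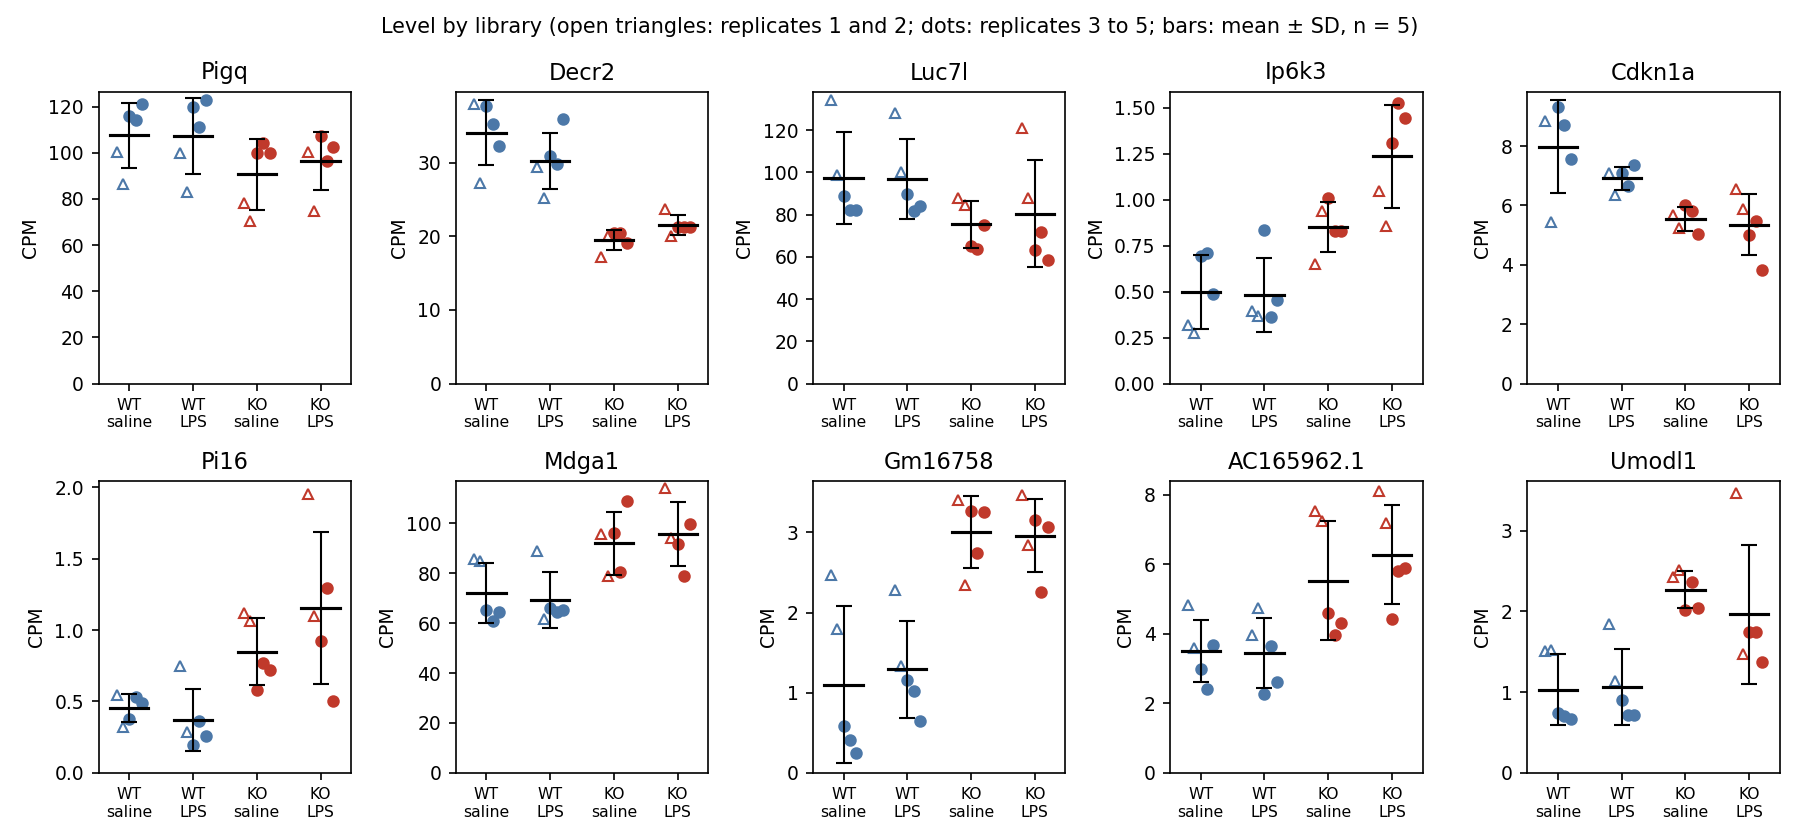
Levels (CPM, each vertical axis starting at 0) of the 10 neighbours that passed with the replicate block, by group. Each mark is 1 library (triangles for replicates 1 and 2, dots for replicates 3 to 5), blue for wild-type (WT) and red for knockout (KO), and bars give mean ± SD with n = 5. The genotypes are apart in every library for Decr2, between 25.2 and 38.0 CPM in WT and between 17.3 and 23.8 CPM in KO, and overlap for the others.

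The block added 7 neighbours, which are described because they passed with it, with their values in view. Mdga1 encodes a membrane-anchored protein that binds neuroligin at inhibitory synapses. It ran from 61.0 to 89.0 CPM (median 65.2) in WT and from 78.8 to 114 CPM (median 94.8) in KO, with 3 libraries of each genotype in the overlap. Its log2 fold change was 0.41 ± 0.09 (SE; edgeR adjusted p = 0.0679, and 0.00168 with the block).

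Gm16758, a non-coding gene that lies within the Mdga1 body on the opposite strand with no shared exon, ran from 0.245 to 2.46 CPM (median 1.09) in WT and from 2.26 to 3.47 CPM (median 3.12) in KO. Its log2 fold change was 1.29 ± 0.31 (SE; edgeR adjusted p = 0.0814, and 0.00318 with the block). It differed in size between the library sets, with 0.64 in replicates 1 and 2 and 2.21 in replicates 3 to 5, a gap that was not tested.

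Further along, AC165962.1, a non-coding gene antisense to Btbd9 and sharing 3.00% of its exon bases with it, had 2.25 to 4.83 CPM (median 3.63) in WT and 3.96 to 8.10 CPM (median 5.85) in KO. The log2 fold change was 0.76 ± 0.17 (SE; edgeR adjusted p = 0.0602, and 0.000333 with the block). Umodl1, a membrane protein related to uromodulin and 2.44 Mb after Fkbp5, had 0.672 to 1.85 CPM (median 0.824) in WT and 1.38 to 3.47 CPM (median 2.03) in KO, and its log2 fold change was 0.99 ± 0.23 (edgeR adjusted p = 0.061, and 0.00149 under the block). Neither separated the genotypes completely.

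The other 3 were lower in knockout. Cdkn1a, the cyclin-dependent kinase inhibitor p21, had 5.44 to 9.33 CPM (median 7.23) in WT and 3.82 to 6.54 CPM (median 5.57) in KO. Its log2 fold change was -0.44 ± 0.11 (SE; edgeR adjusted p = 0.0814, and 0.0293 with the block). Luc7l, a splicing factor of the U1 particle, had a median of 89.3 CPM in WT and 73.2 CPM in KO (log2 fold change -0.32 ± 0.13, edgeR adjusted p = 0.865, and 0.00647 with the block). Pigq, a subunit of the enzyme that starts GPI anchors, had medians of 113 and 100 CPM (log2 fold change -0.20 ± 0.10, edgeR adjusted p = 1.0, and 0.0288 with the block). Over all libraries the genotypes overlapped widely, from 81.8 to 134 CPM in WT and 58.3 to 121 CPM in KO for Luc7l. For Pigq the ranges were 82.8 to 123 and 70.3 to 107 CPM. Within replicates 3 to 5 Luc7l ran from 81.8 to 89.9 CPM in WT and from 58.3 to 74.9 CPM in KO. Pigq ran there from 111 to 123 and from 96.5 to 107 CPM. Within replicates 1 and 2 both genes overlapped, with 98.6 to 134 and 84.6 to 121 CPM for Luc7l. For Pigq these were 82.8 to 100.1 and 70.3 to 100.1 CPM. With the library set as a term Luc7l and Cdkn1a passed as well (edgeR adjusted p = 0.0321 and 0.0405), and Pigq did not (0.114).

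**Figure D2:**
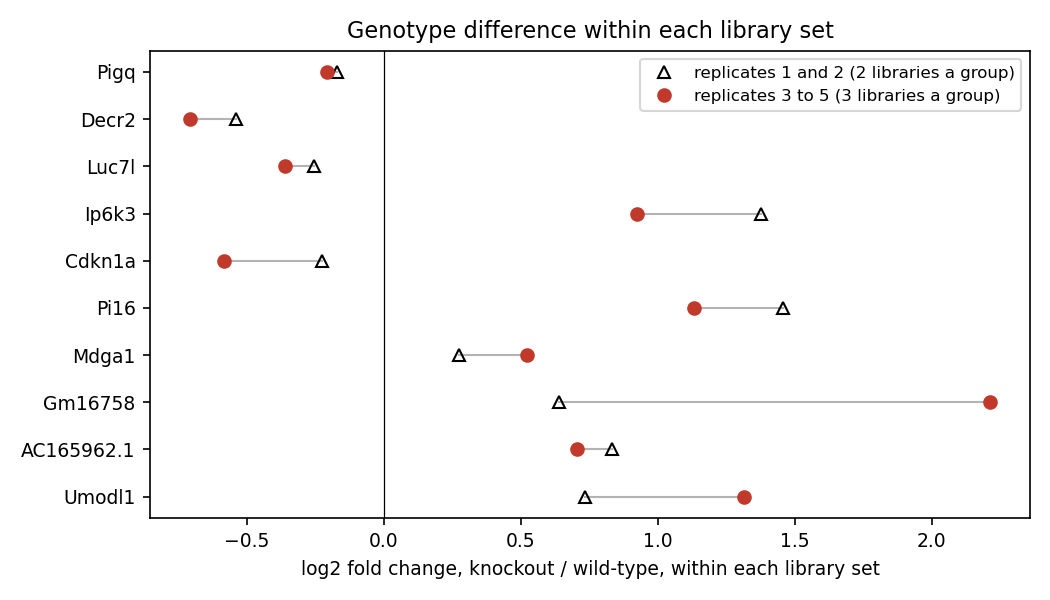
Log2 fold change, knockout against wild-type over both treatments, of the same 10 neighbours within each library set: triangles for replicates 1 and 2 (2 libraries a group), dots for replicates 3 to 5 (3 libraries a group). Each gene lies on the same side of 0 in both sets, with the widest gap for Gm16758 at 0.64 and 2.21. The genes were picked by a fit on all of these libraries, so the shared side is no independent support.

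All 10 of these neighbours had the same sign in both library sets. They were picked by a fit on these same libraries, so a shared sign was to be found and is no independent support. Among replicates 1 and 2 alone none of 222 tested neighbours passed the edgeR threshold, against 0.0564% of all genes, while 19 had an unadjusted p under 0.05 (6.47% of all genes did). Among replicates 3 to 5 alone 22 of 202 passed, or 10.9%, against 8.1% of all genes.

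Along the chromosome, 19 of the 24 differences at an unadjusted p under 0.05 lay within 2.5 Mb of Fkbp5. They came from 82 tested neighbours in that range (23.2%, 10 higher and 9 lower in knockout). Of the 132 that lay farther off, 5 did (3.79%, 1 higher and 4 lower). Genes 5 to 20 Mb away gave 11 of 290 (3.79%), and genes on other chromosomes 703 of 15123 (4.65%). All 3 called genes, and all 10 with the block, were within 2.5 Mb. Ip6k3 and Pi16 are counted among them and in the nearer share. Both entered the test through the knockout groups, where they are high, so nothing is read from their place in these counts. The nearer share was 12.9% in replicates 1 and 2 alone and 39.7% in replicates 3 to 5 alone, where the farther share was 5.84% and 16.9%, and all genes at 6.47% and 23.3%. Leaving out 1 library at a time, the nearer share ran from 19.05% to 30.5%. The farther share ran from 1.49%, without KO saline 1, WT LPS 5 or WT saline 3, 4 or 5, to 8.27%, without KO LPS 1. Limma-voom, which called 3.29% of all genes, placed 17 of its 20 calls among the neighbours within 2.5 Mb. Replicates 3 to 5 alone placed 15 of 22 there. The limit of 2.5 Mb is a set width and not a boundary found in the data. Decr2 and Umodl1 lie close inside it, in steps of 1 Mb that it cuts through. Those steps, from 3 to 2 Mb before Fkbp5 and from 2 to 3 Mb after it, held 5 of 38 and 3 of 9 genes at an unadjusted p under 0.05. The members being chosen with results known, these shares are a description and no test was run on them.

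**Figure D3:**
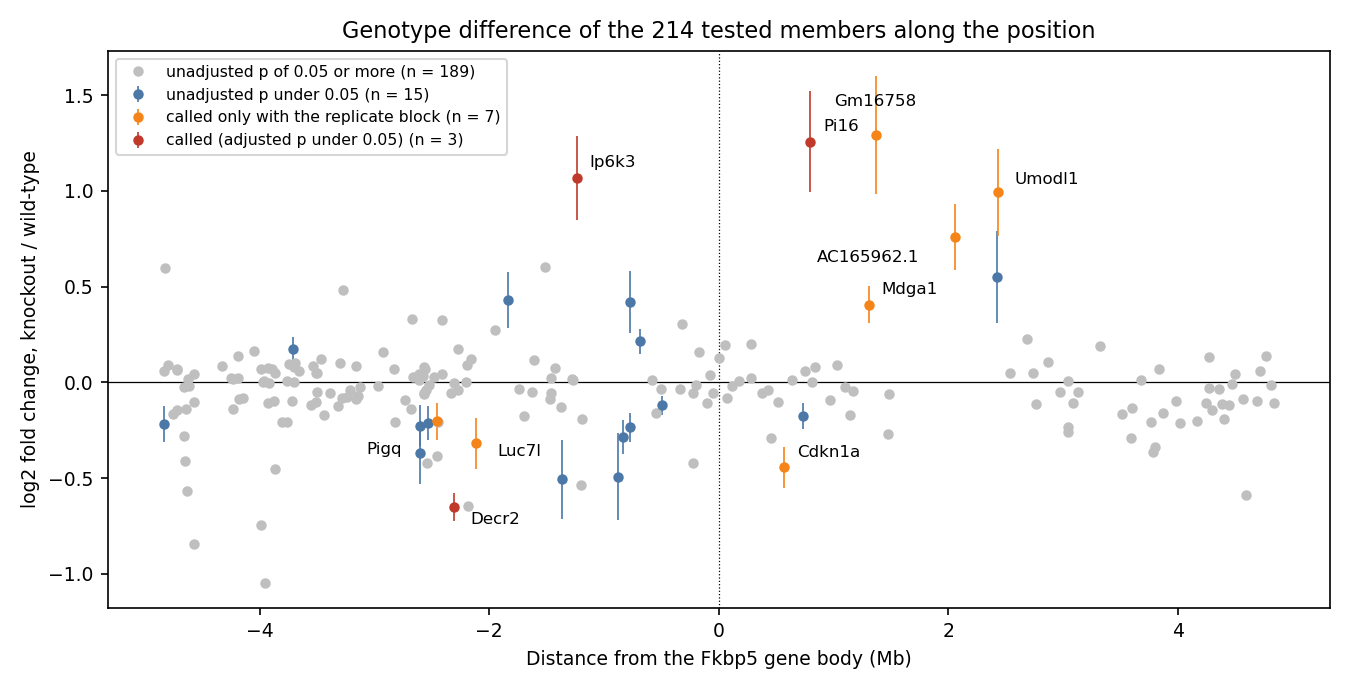
Log2 fold change, knockout against wild-type over both treatments, of the 214 tested neighbours by distance from the Fkbp5 gene body (Mb, dotted line at 0). Bars give the SE for genes with an unadjusted p under 0.05 and for those called with the block; red are the 3 called, orange the 7 called only with the block, blue 15 others with an unadjusted p under 0.05 and grey the rest. The coloured points lie mostly within 2.5 Mb on either side.

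In steps of 1 Mb from the low to the high end, 1 of 27, 1 of 42, 5 of 38, 3 of 18 and 6 of 18 neighbours before Fkbp5 had an unadjusted p under 0.05. After Fkbp5 there were 3 of 19, 2 of 8, 3 of 9, 0 of 16 and 0 of 19. In 7 of the 10 steps fewer than 20 genes were tested, so single steps are imprecise. On the side before Fkbp5, 5 were higher and 11 lower in knockout, and after it 6 were higher and 2 lower. Across the 214 genes, which are not independent, Spearman's rho between distance and absolute log2 fold change was -0.03, and the median absolute value was 0.12 within 2.5 Mb and 0.09 beyond.

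**Figure D4:**
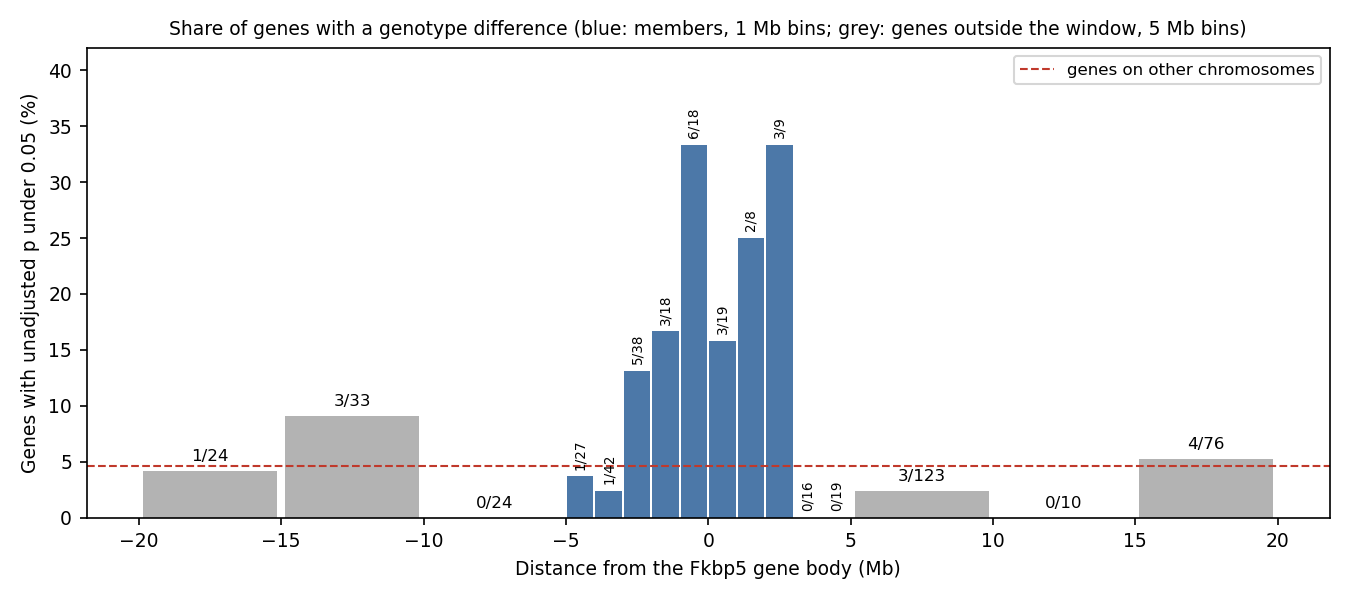
Share of tested genes with an unadjusted p under 0.05 between the genotypes (%), by distance from the Fkbp5 gene body (Mb); numbers over the bars give genes over genes tested. Blue bars are the neighbours in 1 Mb steps, grey bars the genes beyond in 5 Mb steps, and the dashed line marks other chromosomes at 4.65%. The blue bars from 3 Mb before to 3 Mb after Fkbp5 stand between 13.2% and 33.3%, and all others below 10%.

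The genes nearest to Fkbp5 did not pass. On the low side these were Def6, an exchange factor of lymphocytes (log2 fold change 0.16 ± 0.24, SE), Ppard, a nuclear receptor for fatty acids (-0.10 ± 0.12), Fance, a Fanconi anaemia protein of DNA repair (0.04 ± 0.12), and Tead3, a transcription factor of the Hippo pathway (-0.06 ± 0.26). On the high side they were E230001N04Rik, a non-coding gene 0.005 Mb from the end of Fkbp5 (0.13 ± 0.32), Lhfpl5, a tetraspan membrane protein (0.20 ± 0.17), Srpk1, a kinase of splicing factors (-0.08 ± 0.30), and Slc26a8, an anion transporter (-0.02 ± 0.22). Only for Lhfpl5 was the change larger than its SE, and a change that misses the threshold is not shown to be absent. The spread of Srpk1 went with the library sets: it ran from 18.4 to 68.4 CPM in WT and from 19.04 to 65.5 CPM in KO, with replicates 1 and 2 above replicates 3 to 5 in every group. Ppard ran from 15.5 to 26.9 CPM in WT and from 15.5 to 24.8 CPM in KO.

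The genotype difference could be read a second time, since the saline groups and the LPS groups share no library. After saline, 1 neighbour passed (Decr2, log2 fold change -0.81 ± 0.10, edgeR adjusted p = 0.000254), against 0.171% of all genes, and with the replicate block 2 passed (Decr2 and Umodl1), against 0.359%. The count was 2 with the set term (0.286% of all genes) and with the block and without the 3 thalamus-rich libraries (0.331%). It was 8 in limma-voom (2.25%), 0 in replicates 1 and 2 alone (0.0169%) and 11 in replicates 3 to 5 alone (3.22%). After LPS none passed, against 0.146%. Here 14 had an unadjusted p under 0.05, against 3.27% of all genes, DESeq2 called 3 (0.323% of all genes) and limma-voom 5 (0.378%), and Decr2 was nearest (-0.49 ± 0.10, edgeR adjusted p = 0.067). With the block 5 passed after LPS (Decr2, Ip6k3, Pi16, Mdga1 and AC165962.1), against 0.384%. With the block and without the 3 thalamus-rich libraries 0 passed, against 0.169%. The set term gave 4 (0.329%) and replicates 3 to 5 alone 6 (0.76%). When 1 library was left out, 1 gene passed in 4 of the omissions, and not the same one: Pi16 (higher) without WT LPS 1, Ip6k3 (higher) without WT LPS 3, and Decr2 (lower) without WT LPS 2 or WT saline 2.

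Of 15 neighbours with an unadjusted p under 0.05 after saline (2.67% of all genes), 15 had the same sign after LPS, where all genes gave 79.9%. Of 14 after LPS, 13 had the same sign after saline, where all genes gave 80.4%. Over all 214 the shares were alike, 60.7% for the neighbours and 58.3% for all genes, and the 2 log2 fold changes had a Pearson r of 0.47 and a Spearman rho of 0.40 across neighbours (0.51 and 0.26 across all genes, which share a fit and library sets). In both treatments 9 stood at an unadjusted p under 0.05: AC165962.1, Cdkn1a, Decr2, Gm16758, Ip6k3, Mdga1, Pacsin1, Pi16 and Umodl1. All 9 lie within 2.5 Mb of Fkbp5. Ip6k3 and Pi16 among them entered the test through the knockout groups, where they are high, so the 9 are given as a description. Pacsin1, which bends membranes in synaptic vesicle recycling, was the one of them not described above. It ran from 343 to 405 CPM (median 356) in WT and from 373 to 468 CPM (median 433) in KO, with log2 fold changes of 0.21 ± 0.09 (SE) after saline and 0.22 ± 0.09 after LPS (edgeR adjusted p = 0.304 over both).

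**Figure D5:**
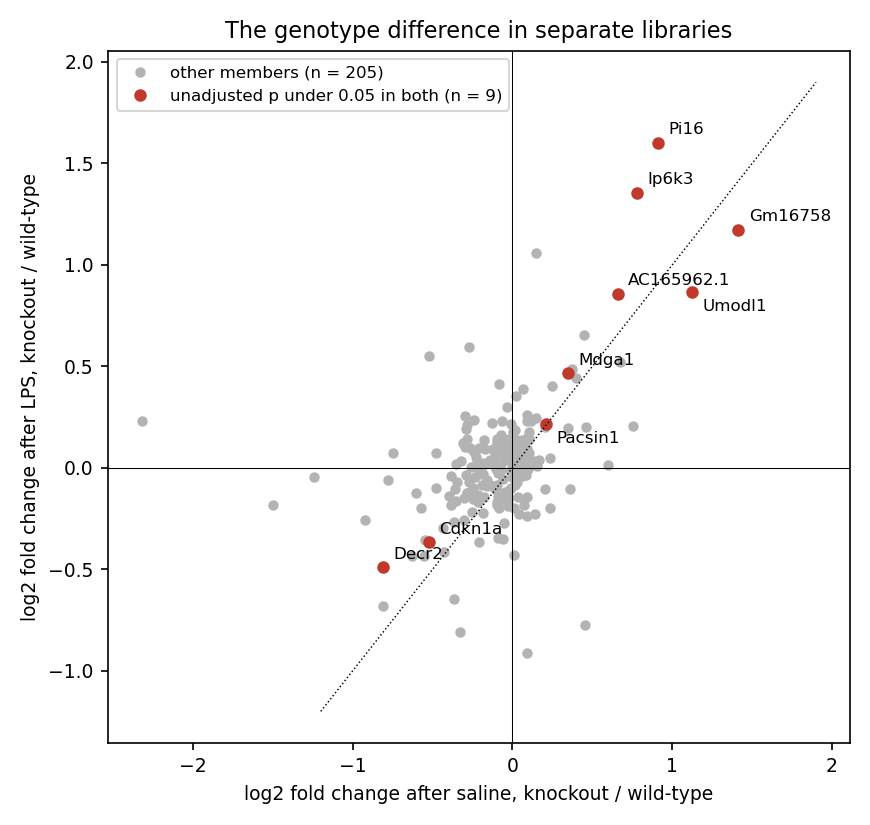
Log2 fold change, knockout against wild-type, after saline (horizontal) and after LPS (vertical) for the 214 tested neighbours; each axis uses its own 10 libraries. Red marks the 9 with an unadjusted p under 0.05 in both, and the other 205 are grey. Each of the 9 lies on the same side of 0 in both treatments, some of them away from the dotted line of equal change.

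By role, the neighbours form 9 lists, each with at most 1 member called. Some genes, such as Pacsin1, stand in more than 1 list. Over all genes 0.439% were called and 4.79% had an unadjusted p under 0.05, the shares beside which the counts below stand. The list of signalling kinases and phosphatases had 1 of 14 tested members called (Ip6k3, higher) and a median log2 fold change of 0.00. At an unadjusted p under 0.05 it had 2, both higher (Ip6k3 and Dusp1). Dusp1, the phosphatase that switches off MAP kinases and is known to respond to glucocorticoids, ran from 10.5 to 16.5 CPM in WT and from 11.5 to 30.2 CPM in KO, and its log2 fold change of 0.43 ± 0.15 (SE) did not pass (edgeR adjusted p = 0.526). The most abundant per length was Mapk8ip3, a scaffold of JNK signalling and axonal transport, with 427 ± 46.1 CPM (SD, n = 5) in WT saline and 458 ± 45.5 CPM in KO saline, within the spread of both groups. Its log2 fold change over both treatments was 0.12 and did not pass. It was among the 22 neighbours called in replicates 3 to 5 alone, where 8.1% of all genes were called.

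Synaptic and neuronal membrane genes had none of 21 called, with 3 higher (Syngr3, Pacsin1 and Mdga1) and 2 lower (Metrn and Grm4) at an unadjusted p under 0.05 and a median of 0.02. Grm4, a presynaptic glutamate receptor, ran from 7.17 to 23.6 CPM in WT and from 5.404 to 19.3 CPM in KO, with medians of 9.76 and 7.09 CPM and overlapping ranges. Fbxl16, the most abundant of this list per length, had a log2 fold change of 0.03 ± 0.13 (SE). The list of vesicle and lysosome genes had none of 17 called (median 0.02) and 1 higher at an unadjusted p under 0.05, again Pacsin1. Its most abundant member per length, Atp6v0c, the proton channel subunit of the vacuolar ATPase, had 0.02 ± 0.21.

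Among 26 lipid, one-carbon and energy genes 1 was called (Decr2, lower), with a median of 0.00. At an unadjusted p under 0.05 this list had 2, both lower (Decr2 and Nudt3). Nudt3, which removes phosphate from the inositol pyrophosphates that enzymes such as Ip6k3 make, ran from 204 to 271 CPM in WT and from 175 to 246 CPM in KO (log2 fold change -0.23 ± 0.08, SE; edgeR adjusted p = 0.454). Mtch1, an outer mitochondrial membrane protein and the most abundant here per length, had 0.00 ± 0.14. The 9 genes listed as immune and vascular, a loose heading that also takes in Paqr4 and Kremen2, had 1 called. This was Pi16, higher, also the only one at an unadjusted p under 0.05. Their median was -0.02, with Paqr4 the most abundant per length at -0.02 ± 0.10.

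The 16 genes of RNA splicing and processing had none called, a median of -0.10, and 2 lower at an unadjusted p under 0.05 (Luc7l and Ppil1). Rpusd1, a pseudouridine synthase relative and the most abundant of them per length, had 0.03 ± 0.06 (SE). In the list of transcription factors and chromatin genes none of 19 was called (median 0.01; 1 lower, the general transcription factor subunit Taf11), and Elob, the elongin B subunit, had 0.05 ± 0.15. Of 13 zinc finger genes of the KRAB and related families none was called (median -0.03; 1 lower, Zfp213), and Zfp871 had -0.11 ± 0.12. Cell cycle, repair and protein quality genes had none of 16 called (median -0.05; 1 lower, Cdkn1a). Stub1, the ubiquitin ligase CHIP that works with HSP70 and HSP90, had -0.06 ± 0.09. Beside these medians, that of all genes was -0.01. A further 67 tested neighbours belong to no list.

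Some large fold changes did not pass. Dnase1l2, a DNase, ran from 0.196 to 7.25 CPM in WT and from 0.0639 to 7.85 CPM in KO, with a log2 fold change of -1.04 (unadjusted p = 0.194). Rgs11, a regulator of G protein signalling, ran from 2.02 to 45.3 CPM in WT and from 2.43 to 36.2 CPM in KO (-0.64, unadjusted p = 0.321). The spread between libraries of the same genotype was larger here than the difference between the genotypes. For both genes the highest values were those of replicate 1 in WT saline, WT LPS and KO LPS. Dnase1l2 had 7.25, 6.10 and 7.85 CPM there and 0.434 CPM in KO saline 1. Rgs11 had 45.3, 31.5 and 36.2 CPM there and 8.46 CPM in KO saline 1.

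LPS moved none of the neighbours past the threshold 7 days after the injection. No neighbour passed in wild-type (0.0% of all genes), in knockout (0.00609%) or over both genotypes (0.0426%), and none in the interaction of genotype and LPS (0.0%). DESeq2 and limma-voom called none either. At an unadjusted p under 0.05 there were 4, 4, 9 and 2 neighbours in edgeR, where all genes gave 2.07%, 1.75%, 2.71% and 1.11%. The 2 smallest p-values for LPS over both genotypes belonged to Rhbdl1, a rhomboid protease whose exons overlap Gm20683 over 81.4% of their length, and Rasal3, a Ras inhibitor of blood cells.

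Rhbdl1 stood at 0.958, 0.921, 0.960, 1.01 and 0.734 CPM in WT saline and at 1.38, 1.46, 1.35, 1.20 and 1.70 CPM in WT LPS. In KO it stood at 0.977, 0.681, 0.865, 1.02 and 1.38 CPM after saline and at 1.95, 1.75, 1.20, 1.30 and 1.07 CPM after LPS. The wild-type groups did not overlap and the knockout groups did (log2 fold change 0.60 ± 0.16, SE; edgeR adjusted p = 0.607). Rhbdl1 was picked for its small p on these values, and the share of all genes with such a separation was not counted. Rasal3 had means of 1.63 and 2.61 CPM in WT and 1.58 and 2.17 CPM in KO, saline first (0.57 ± 0.17, adjusted p = 0.876).

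For the interaction the 2 smallest p-values were those of Mmp25, a membrane metalloproteinase of leukocytes, and Decr2. Mmp25 stood at 0.274, 0.369, 0.267, 0.296 and 0.367 CPM in WT saline and 0.591, 0.527, 0.837, 0.899 and 0.782 CPM in WT LPS, without overlap. In KO it stood at 0.253, 0.468, 0.384, 0.703 and 0.387 CPM after saline and 0.362, 0.308, 0.381, 0.508 and 0.564 CPM after LPS, with overlap. Mmp25 too was picked for its small p, and the share of all genes that separate in this way was not counted. The interaction was -1.23 ± 0.42 (SE; unadjusted p = 0.00835) for Mmp25 and 0.32 ± 0.14 (unadjusted p = 0.0387) for Decr2, and neither passed in edgeR after adjustment (adjusted p = 1.0 for both).

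The neighbours' median log2 fold change for LPS was 0.08 in knockout, with 156 of 214 above 0 (72.9%, against 53.1% of all genes, whose median was 0.01). Without the 3 thalamus-rich libraries it was 0.01, with 113 of 216 above 0 (52.3%, against 49.2%), and in replicates 3 to 5 alone it was 0.01, with 55.4% above 0 (51.9% of all genes). In replicates 1 and 2 alone it was 0.15, with 74.8% above 0 (52.3%). In wild-type the median was -0.01, with 99 above 0 (46.3%, against 44.8% of all genes and a median of -0.02). The genotype difference had a median of -0.06 after saline (82 above 0) and 0.01 after LPS (118 above 0). The neighbours took their highest shares of counts in WT saline 1 (1.17%), WT LPS 1 (1.16%) and KO LPS 1 (1.21%), and 0.993% in KO saline 1. KO LPS 1 is also one of the 3 thalamus-rich libraries, so leaving these out cannot tell the 2 traits apart. Their part in the medians was not tested. These comparisons share libraries, KO saline in particular, and no test was run on the medians.

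Sequence upstream of the neighbours was searched for 2 motifs. Of the 223 genes, 163 matched RefSeq's promoter table, with 218 windows of 250 bases before a start. The half-site of the glucocorticoid receptor, AGAACA on either strand, was in 6.42% of these windows and in 16.1% of all 32851 windows of the table. The windows of the neighbours were richer in G and C, with a median of 58.8% against 52.4%. Of the genes described, Pi16 had 1 half-site, 27 bases before its start, and the windows of Decr2, Ip6k3 and Cdkn1a had none. Paired CATG cores with 6 bases between them (CATGNNNNNNCATG, the same on both strands, and the core letters of a p53 site) were in 0.459% of the neighbours' windows and 0.490% of all. The Cdkn1a window printed above holds one, and the window of the other Cdkn1a start holds none. The neighbours' share rests on the printed window alone, so nothing is read from the 2 shares. Cdkn1a is a textbook target of p53. A match describes letters and not binding.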

How the data were processed

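RNA was measured in 20 libraries of hippocampus (RNeasy extraction and NEBNext Ultra library kit, per the labels' protocols). Per the submitters' processing notes, reads were trimmed with Trimmomatic 0.38, inspected with FastQC and MultiQC and counted with featureCounts 1.6.0 on mm10. The aligner, annotation release and strand setting are not given in the sources used here. The authors deposited whole-number read counts for each gene, with no normalization. Identifiers of all 55536 genes matched GENCODE vM21 (GRCm38), which gave symbols, positions and biotypes. No sample column was left unused.

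Counts were fitted in edgeR 4.0.16 (R 4.3.3) with TMM factors, filterByExpr by group, 1 model of 4 group means, a robust quasi-likelihood fit and the F test, adjusted by Benjamini-Hochberg over 16419 genes for each of 7 comparisons. The code was tested on simulated counts. CPM are edgeR's, with TMM factors. Near-identical copies were transcripts that blast 2.17.0 aligned at 95% identity or more over at least 30% of the length. Distance is between gene bodies.

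The genes, the role lists and the marker lists were chosen with earlier results of these data known. Genes were named by rule: those called between genotypes, the 4 tested on each side nearest to Fkbp5, the 2 with the smallest p for LPS and for the interaction, and the most abundant per exon length of each role list. Named beyond it, after their values were seen, were the 7 genes called with the block and Pacsin1, Dusp1, Grm4, Nudt3, Syngr3, Metrn, Taf11, Ppil1, Zfp213, Dnase1l2, Rgs11 and Olfr1564.

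Alternatives were DESeq2 1.42.0, its size factors in edgeR, limma-voom (limma 3.58.1), no filter, a filter of 1 CPM in 5 libraries, a minimum sum of 1000 counts, a replicate block, a library set term, each set alone, no thalamus-rich libraries (3), and each library left out. The replicate block without those 3 libraries was added after the data were seen. A window of 2.5 Mb was a further alternative. Residuals from the group means had correlations of 0.264 to 0.854 (median 0.462) in the 30 same-number pairs. In 48 pairs that shared only the set they were 0.191 to 0.672 (median 0.45), and in 72 pairs from different sets -0.705 to -0.149. Numbers thus mark at least the library set, and what else they stand for the labels do not say.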

Additional observations from a re-analysis of the deposited data

Results flagged for a closer look

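Of 120 groups of 5 libraries looked at for 30 named genes, 7 had a library far from the other 4, by Dixon's criterion at 0.71 of the group's range. Chance flags about 1 in 20 groups.

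Replicate 1 was the high library in 5 of the 7. Tead3 was at 4.49 CPM in WT LPS replicate 1 (next 1.98) and at 4.16 CPM in KO LPS replicate 1 (next 1.74). Slc26a8 was at 6.48 CPM in WT saline replicate 1 (next 3.02), Mdga1 at 89.0 CPM in WT LPS replicate 1 (next 66.1) and Umodl1 at 3.47 CPM in KO LPS replicate 1 (next 1.75). Ip6k3 was at 0.837 CPM in WT LPS replicate 3 (next 0.456), the highest wild-type value of a gene called higher in knockout. Rpusd1 was at 42.7 CPM in WT LPS replicate 2, below the others (next 50.1).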

How the results depend on the processing

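The count of 3 neighbours called between the genotypes moved with the processing. It was 9 in DESeq2, 20 in limma-voom, 10 with the replicate block, 8 with the block and without the 3 thalamus-rich libraries, 9 with the library set as a term, 0 in replicates 1 and 2 alone, 22 in replicates 3 to 5 alone, and 1 among genes with at least 1000 counts. Leaving out 1 library gave 1 to 7, where all genes gave 0.322% to 0.492%: 1 without KO saline 4 or 5, WT LPS 4 or 5 or WT saline 5, 5 without WT LPS 1 and 7 without WT saline 1. After saline, the count of 1 became 2 with the block, the set term, or the block without the 3 libraries, 8 in limma-voom, 0 in replicates 1 and 2 and 11 in replicates 3 to 5. After LPS, the count of 0 became 5 with the block, 4 with the set term, 3 in DESeq2, 5 in limma-voom, 6 in replicates 3 to 5 and 0 with the block and without the 3 libraries, and 0 to 1 when 1 library was left out. Sets alone have fewer libraries (8 and 12); otherwise the cause was not tested. Counts for LPS and for the interaction stayed at 0 in every alternative run. The members' median log2 fold change was -0.03 and ran from -0.06 to 0.01 over the omissions of 1 library, on both sides of 0. Its SD between libraries was 0.110. Leaving out 1 library of 20 moves the median by only part of such a spread, so no stability is read from the narrower range. Of 927 values of single genes under alternatives, 841 kept their side of the threshold, 33 lost a call and 53 gained one. The sign changed in 70, all of genes not called, and in 0 of the called values. Depth limits Ip6k3 and Pi16, with 308 and 309 counts over 20 libraries.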
